A study of Homo sapiens with 4 samples.

Results

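Polyamine synthesis and catabolism were followed through 10 genes, ODC1, AMD1, SRM, SMS, SAT1, PAOX, SMOX, OAZ1, OAZ2 and AZIN1, in BT474, an established line of human breast cancer cells that carries extra copies of ERBB2. The genes were chosen by symbol, and every probe set annotated to exactly 1 of them was taken, which gave 22 probe sets of 54613 on the array that are not controls. Each gene had at least 1. One further probe set, 210593_at, is annotated to both ZSWIM8 and SAT1 and was left out; it lay at 5.50 and 5.42 (log2) with AICAR and 5.13 and 5.49 with vehicle.

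The cells had been kept for 24 h in medium with 0.5 mM AICAR, a precursor of the AMP mimic ZMP and an activator of the energy sensor kinase AMPK, or with vehicle alone. Total RNA of each group was hybridised to 2 Affymetrix U133 Plus 2.0 arrays, 4 in all, and the values are normalized log2 expression per probe set. The labels do not say that the replicates were separate cultures, so p-values cover only the spread among these arrays, which may be technical in origin.

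Polyamines are small positively charged molecules that bind nucleic acids and that proliferating cells, breast cancer cells among them, need in quantity. Ornithine decarboxylase (ODC1) makes putrescine, which is extended to spermidine and spermine with aminopropyl groups from decarboxylated S-adenosylmethionine (SAM). The acetyltransferase SAT1 marks spermidine and spermine for export or oxidation, and antizymes send ornithine decarboxylase to the proteasome. Much of this control acts on translation and protein turnover, which an RNA array does not measure.

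The largest differences among the polyamine genes were those of SAT1 and ODC1. SAT1, the rate-limiting enzyme of polyamine catabolism, was 1.61-fold higher with AICAR by its brightest probe set, and 2 of its 3 probe sets passed the test over all probe sets. ODC1, the rate-limiting enzyme of synthesis, was 1.38-fold lower, a difference that passed with 1 probe set per gene but not over all probe sets. The other synthesis enzymes, the oxidases, the antizymes and the antizyme inhibitor differed by less, and none of them passed the threshold. In RNA from whole cultures, fewer cells that express a gene and less of its RNA per cell cannot be told apart. The test was limma's moderated test with Benjamini-Hochberg adjustment, two-sided, at an adjusted p under 0.05, and it was run in 2 ways. One fit took all 54613 probe sets, and the other took the brightest probe set of each gene and left out dim genes, which tested 13842 genes.

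Over all probe sets, 2 of the 22 polyamine probe sets rose, both of SAT1, and 0 fell. Of all probe sets 0.599% rose and 0.888% fell in this limma fit, 1.49% in all. At an unadjusted p under 0.05, 4 polyamine probe sets were higher and 2 lower, where 6.92% and 9.19% of all probe sets were. With 1 probe set per gene, 1 of the 10 genes rose (SAT1) and 1 fell (ODC1), against 4.63% and 5.19% of the genes tested, 9.82% in all. All 10 genes were bright enough to be tested. The median log2 difference of the 10 genes was -0.03 and that of all genes tested was 0.01. Both AICAR values lay above both vehicle values in 8 of the 22 probe sets and below them in 5, and the groups overlapped in 9; over all probe sets these positions were taken by 23.6% and 23.3%.

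**Figure D1:**
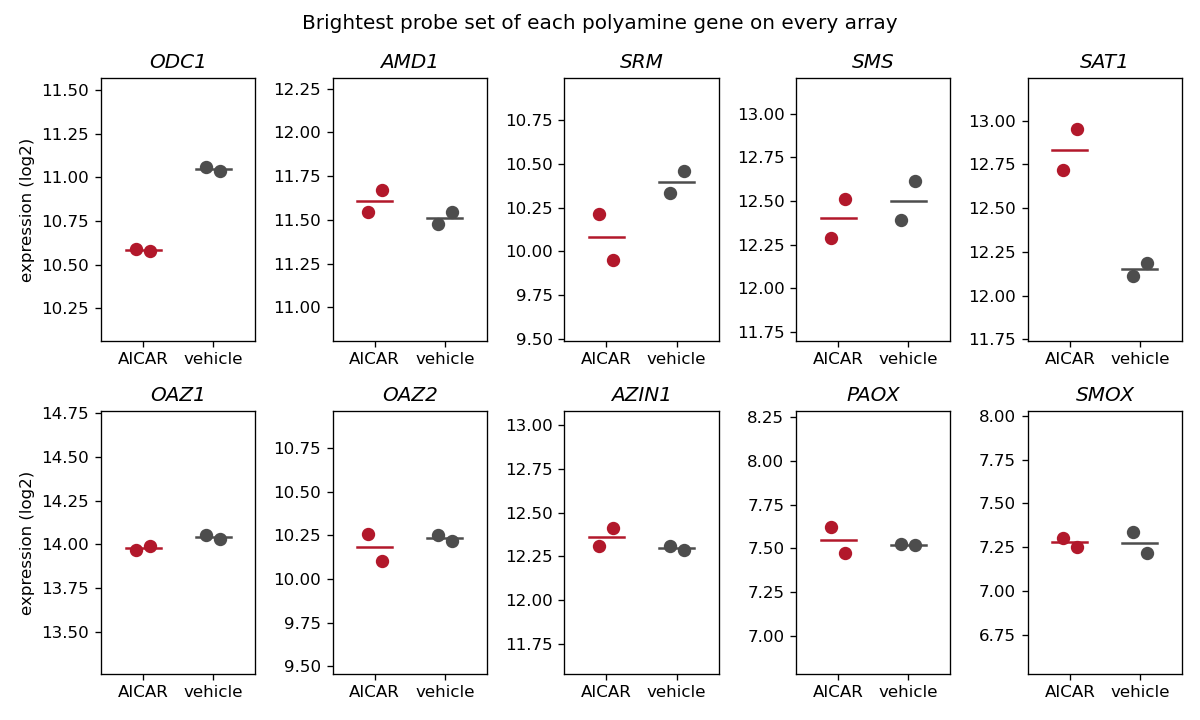
Log2 expression of the brightest probe set of each of the 10 genes; each point is 1 array, the bar is the mean of the 2 arrays, AICAR stands left of vehicle, and every panel spans the same height on the log2 scale. The AICAR points of SAT1 (12.72 and 12.95) lie above its vehicle points (12.11 and 12.19), those of ODC1 (10.59 and 10.58) lie below its vehicle points (11.06 and 11.04), and SMS, OAZ2, AZIN1, PAOX and SMOX overlap.

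In synthesis, ODC1 has a single probe set, 200790_at. It measured 10.59 and 10.58 (log2) with AICAR, against 11.06 and 11.04 with vehicle. The groups did not overlap, and the replicates lay close together (SD 0.010 with AICAR and 0.015 with vehicle, n = 2 each). The difference was -0.46 (log2, SE 0.0660, 95% confidence interval -0.62 to -0.30, limma adjusted p = 0.0144) with 1 probe set per gene, the 287th largest fall of the 13842 genes. In the fit of all probe sets the same difference had an adjusted p of 0.0546 (limma) and did not pass. With 1 probe set per gene the call was lost without vehicle replicate 1 (adjusted p = 0.0971) and without vehicle replicate 2 (0.0851), while the difference stayed at -0.45 and -0.47.

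AMD1, the decarboxylase that turns SAM into the aminopropyl donor, has 2 probe sets of opposite sign. The brighter one, 201197_at, lay at 11.55 and 11.67 (log2) with AICAR and at 11.48 and 11.54 with vehicle, which left them 0.10 higher (95% confidence interval -0.12 to 0.32, adjusted p = 0.666 over all probe sets). The other, 201196_s_at, differed by -0.03 (-0.24 to 0.18, adjusted p = 0.898), with overlap between the groups, and by 0.0032 after quantile normalization.

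Spermidine synthase, SRM, measured 10.21 and 9.95 (log2) with AICAR, against 10.33 and 10.46 with vehicle. Its AICAR values were both the lower ones, with an SD of 0.18 (n = 2, against 0.09 with vehicle), and the difference of -0.32 (95% confidence interval -0.57 to -0.07) did not pass with 1 probe set per gene (limma adjusted p = 0.116) or over all probe sets (0.240). It was -0.19 without AICAR replicate 2 and -0.45 without AICAR replicate 1, where it passed with 1 probe set per gene (limma adjusted p = 0.0497). It also passed with trend and robust variances (0.0239). Spermine synthase, SMS, overlapped between the groups, at 12.29 and 12.51 (log2) with AICAR and 12.39 and 12.61 with vehicle. Its difference was -0.10 (-0.39 to 0.18, adjusted p = 0.734 over all probe sets). The 5 probe sets of the synthesis enzymes thus had 1 member, that of ODC1, whose interval lay wholly below -0.2, and SRM was the only other whose interval did not include 0.

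Promoter sequences are shown for the 2 genes that were called and for SRM, which lay next in size among the synthesis enzymes. They come from RefSeq (GRCh38.p14), whose windows of 300 bases run from 250 before to 50 after a start site; 7 of the 10 genes matched, with 10 windows, and AZIN1, PAOX and SMOX did not. Only bases before the start are printed, and for the downstream start of ODC1 only a 30-base stretch of them. Capitals mark TATAA, the core of a TATA box, searched on both strands, or CACGTG, the palindromic E-box that MYC and related factors bind; the motifs do not overlap.
SAT1, chrX:23782923-23783172, plus strand: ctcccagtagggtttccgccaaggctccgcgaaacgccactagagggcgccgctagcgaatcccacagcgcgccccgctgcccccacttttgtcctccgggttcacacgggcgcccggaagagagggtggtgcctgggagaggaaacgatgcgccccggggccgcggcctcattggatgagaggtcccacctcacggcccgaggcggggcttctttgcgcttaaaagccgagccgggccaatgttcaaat
ODC1, upstream start, chr2:10448328-10448577, minus strand: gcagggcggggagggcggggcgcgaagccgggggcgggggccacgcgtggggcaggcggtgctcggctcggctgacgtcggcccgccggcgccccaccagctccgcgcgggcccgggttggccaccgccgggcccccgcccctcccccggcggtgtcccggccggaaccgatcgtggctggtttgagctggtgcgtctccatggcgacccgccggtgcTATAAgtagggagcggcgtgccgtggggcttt
ODC1, E-box before the downstream start, chr2:10448024-10448053, minus strand: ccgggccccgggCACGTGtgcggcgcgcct
SRM, chr1:11060019-11060268, minus strand: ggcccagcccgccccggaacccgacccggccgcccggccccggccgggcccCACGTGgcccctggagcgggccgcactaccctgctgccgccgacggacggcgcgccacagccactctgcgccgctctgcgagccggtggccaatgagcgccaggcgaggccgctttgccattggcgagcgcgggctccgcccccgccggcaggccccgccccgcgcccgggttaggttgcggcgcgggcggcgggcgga

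The SAT1 window held neither motif. The upstream window of ODC1 held TATAA with its first base at -32, counted with the start site as 0, and its downstream window held CACGTG at -29 and at 5. The SRM window held CACGTG at -199. CACGTG occurred in 2 of the 10 windows, of 2 of the 7 genes, and in 7.26% of all 35116 windows. TATAA on the gene's strand occurred in 4 of the 10 windows and in 14.83% of all windows. Those 4 belong to 3 genes (ODC1, AMD1 and OAZ1), and the AMD1 windows among them overlap. The first base of TATAA lay at -28 and -29 in the AMD1 windows, and at 6, after the start site, in that of OAZ1. On either strand TATAA occurred in 20.44% of all windows. The letters describe these windows and do not show that a factor was bound.

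In catabolism, the SAT1 probe set 210592_s_at measured 12.72 and 12.95 (log2) with AICAR, against 12.11 and 12.19 with vehicle. Probe set 213988_s_at measured 11.74 and 12.05 with AICAR, against 11.14 and 11.13 with vehicle. Probe set 203455_s_at measured 12.52 and 12.99 with AICAR, against 12.00 and 12.14 with vehicle. In each of them the AICAR arrays were both higher, without overlap, and AICAR replicate 2 was above replicate 1.

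The differences of SAT1 were 0.68 for 210592_s_at (log2, SE 0.107, adjusted p = 0.0388), 0.76 for 213988_s_at (SE 0.120, adjusted p = 0.0397) and 0.69 for 203455_s_at (SE 0.156, adjusted p = 0.0872) in the limma fit of all probe sets. The first 2 passed. The third did not, and its AICAR arrays were also the farthest apart (SD 0.33, n = 2, against 0.10 with vehicle). With 1 probe set per gene the difference of 210592_s_at was the 116th largest rise of 13842 genes (95% confidence interval 0.46 to 0.91, limma adjusted p = 0.0134). Over all probe sets 0 of the 3 passed when any 1 array was left out, and with 1 probe set per gene the call of SAT1 was lost when vehicle replicate 1 (adjusted p = 0.0820) or vehicle replicate 2 (0.0703) was left out. The 3 differences stayed between 0.45 and 0.92 in those fits.

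PAOX, the oxidase that acts on acetylated polyamines, has 4 probe sets, all dimmer than those of SAT1. All had a positive difference, from 0.02 to 0.20 (log2). The differences of 221941_at and 238333_s_at were negative without AICAR replicate 1 (-0.049 and -0.061), and that of 238333_s_at also without vehicle replicate 2 (-0.033). The largest was that of 50400_at, at 7.01 and 6.90 with AICAR against 6.82 and 6.68 with vehicle (adjusted p = 0.369 over all probe sets). It was the only PAOX probe set without overlap, and 238334_at differed by 0.08. SMOX, which oxidises spermine directly, has 3 probe sets with differences of 0.17 for 1555680_a_at, 0.00068 for 210357_s_at (-0.011 after median centring) and -0.15 for 217074_at. The first had its AICAR values above and the last had them below the vehicle values, the brightest one overlapped, and none passed (adjusted p = 0.444, 0.999 and 0.477). The 7 oxidase probe sets had 0 calls and those of SAT1 had 2, where 1.49% of all probe sets were called. At that share, 0 calls among 7 do not set the oxidases apart.

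**Figure D2:**
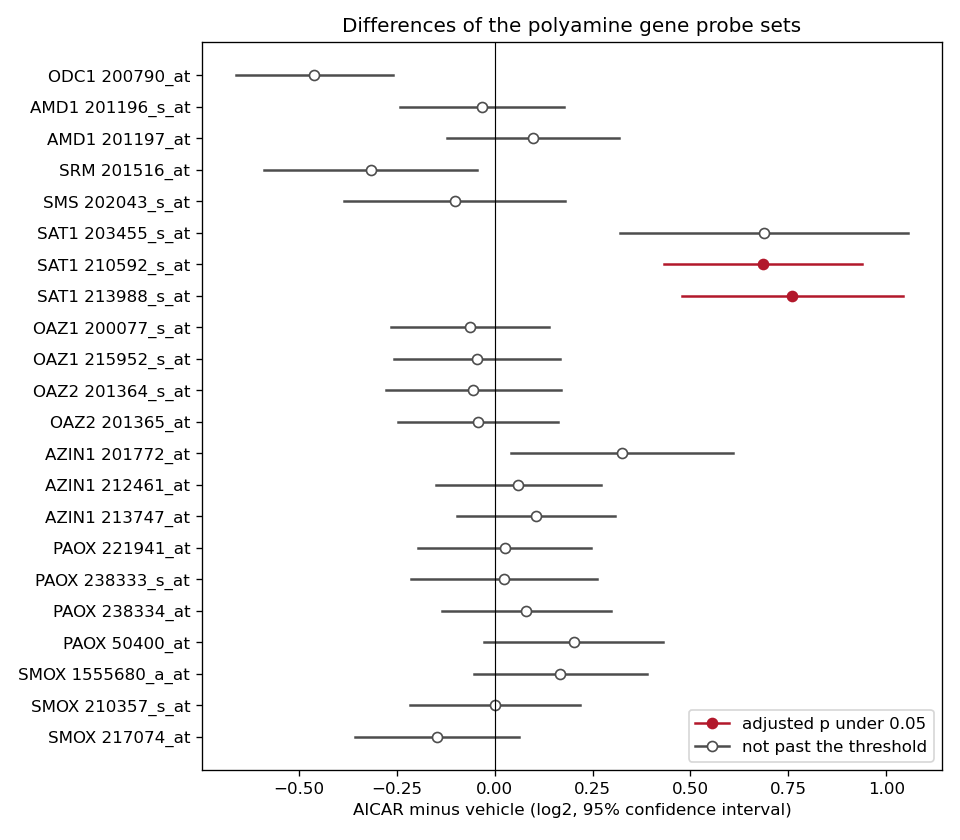
Difference in log2 expression, AICAR minus vehicle, of each of the 22 probe sets in the fit of all probe sets, with its 95% confidence interval; filled points passed an adjusted p under 0.05. The 3 SAT1 probe sets lie between 0.68 and 0.76, the ODC1 probe set lies at -0.46, and the intervals of all others except SRM 201516_at and AZIN1 201772_at include 0.

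Among the regulators of ornithine decarboxylase, the antizymes OAZ1 and OAZ2 bind the enzyme, and cells make them through a frameshift that polyamines promote. The OAZ1 probe set 200077_s_at had a mean at the 99.7th percentile of all probe sets and measured 13.97 and 13.99 (log2) with AICAR, against 14.05 and 14.03 with vehicle. The AICAR values were both lower, with a log2 difference of -0.06 (interval -0.26 to 0.14, adjusted p = 0.769 over all probe sets). The other OAZ1 probe set, 215952_s_at, differed by -0.04, and those of OAZ2 by -0.05 (201364_s_at) and -0.04 (201365_at), each with an interval that included 0. The widest interval of the 4 was that of OAZ2 201364_s_at, from -0.28 to 0.17.

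AZIN1 resembles ornithine decarboxylase without its activity and binds antizyme in its place. Its probe set 201772_at measured 11.67 and 11.98 (log2) with AICAR, against 11.51 and 11.49 with vehicle, without overlap. The difference was 0.33 (95% confidence interval 0.04 to 0.61, adjusted p = 0.245 over all probe sets; 0.0344 with trend and robust variances). It was 0.17 (adjusted p = 0.497) without AICAR replicate 2 and 0.48 (0.172) without AICAR replicate 1. The brightest probe set of the gene, 212461_at, overlapped between the groups and differed by 0.06 (-0.15 to 0.27, adjusted p = 0.794), and the dim 213747_at differed by 0.11. Whether the probe sets of AZIN1 differ from each other in their response was not tested.

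The pathway draws on wider metabolism, and 30 other genes in 5 lists were measured with 1 probe set per gene: paralogs of the 10 genes, the supply of ornithine and arginine, the supply of SAM with the salvage of methylthioadenosine, polyamine transport, and the hypusination of eIF5A. Of these, 27 had a probe set and 22 were bright enough to be tested. Among the 22, 2 rose, 2 fell and 18 did not pass, beside 4.63% and 5.19% of all genes tested. The median difference was -0.08 (log2), against 0.01 over all genes, with 15 negative and 7 positive differences.

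In ornithine and arginine supply 1 of 5 tested genes rose and 0 fell. OAT, the mitochondrial aminotransferase that interconverts ornithine and glutamate semialdehyde, measured 9.60 and 9.73 (log2) with AICAR, against 9.18 and 9.07 with vehicle (difference 0.54, SE 0.0815, limma adjusted p = 0.0163). The mitochondrial arginase ARG2, at -0.30 (adjusted p = 0.0637), and the cationic amino acid carrier SLC7A1, at -0.29 (0.0530), did not pass; the second probe set of ARG2 differed by 0.06, and the 5 of SLC7A1 ran from -0.50 to 0.08, with 4 negative. The call of OAT was lost when vehicle replicate 1 (adjusted p = 0.0695) or vehicle replicate 2 (0.0950) was left out.

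In the supply of SAM and the salvage of methylthioadenosine, the by-product of spermidine and spermine synthesis, 0 of 7 tested genes rose and 1 fell. MAT2A, the catalytic subunit of the SAM synthetase of most tissues, measured 10.60 and 10.72 (log2) with AICAR, against 11.00 and 11.05 with vehicle. Its difference of -0.37 (SE 0.0751, limma adjusted p = 0.0334) did not pass without the dim filter (0.0670) or without any 1 array (0.0507 to 0.169), and its other probe set differed by -0.27. Of the salvage enzymes, MTAP, which splits methylthioadenosine, differed by -0.16 (limma adjusted p = 0.280) and ENOPH1 by -0.25 (0.0802). The 6 probe sets of MTAP ran from -0.22 to 0.10, with 4 of them negative.

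In polyamine transport 1 of 4 tested genes rose and 1 fell. SLC3A2, the heavy chain of several amino acid exchangers that has also been linked to polyamine transport, measured 10.69 and 10.79 (log2) with AICAR, against 10.23 and 10.27 with vehicle (difference 0.49, SE 0.0727, limma adjusted p = 0.0158). SLC18B1, a vesicular polyamine carrier, measured 7.50 and 7.34 with AICAR, against 8.14 and 7.92 with vehicle (difference -0.61, 95% confidence interval -0.85 to -0.37, limma adjusted p = 0.0198). Both genes have 1 probe set, and neither passed without vehicle replicate 1 (adjusted p = 0.105 and 0.106) or vehicle replicate 2 (0.0840 and 0.0539). SLC18B1 also did not pass without AICAR replicate 2 (0.0597). The lysosomal polyamine exporter ATP13A2 differed by 0.12 (adjusted p = 0.516) and its relative ATP13A3 by -0.01 (0.971).

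Spermidine is the donor for hypusine, a modified lysine that the translation factor eIF5A carries. None of the 3 tested genes of that list passed (limma), and 1 was lower at an unadjusted p under 0.05, as were 13.3% of all genes tested. EIF5A itself measured 11.45 and 11.02 (log2) with AICAR, against 11.76 and 11.84 with vehicle. The difference was -0.56 (95% confidence interval -0.90 to -0.23, adjusted p = 0.0556) and negative in all 3 of its probe sets (-0.56 to -0.35), with an SD of 0.30 between the AICAR arrays and 0.06 between the vehicle arrays (n = 2 each). Over the alternative settings its limma adjusted p ran from 0.0176, without AICAR replicate 1 (difference -0.78), to 0.198, without vehicle replicate 2, and without AICAR replicate 2 the difference was -0.35 (0.0789). It passed as the mean of its probe sets (-0.43, adjusted p = 0.0475), after median centring (0.0442), with a filter at the 50th percentile (0.0319), with trend and robust variances (0.0317) and with the replicate block (0.0410), but not after quantile normalization (0.0699), with no dim filter (0.0916) or without vehicle replicate 1 (0.175). DHPS, the enzyme of the first hypusination step, differed by -0.24 (limma adjusted p = 0.194). Its difference was -0.11 without AICAR replicate 2 and -0.38 without AICAR replicate 1. All 3 of its probe sets were negative (-0.46 to -0.24), and as their mean it differed by -0.34 (limma adjusted p = 0.0512).

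None of the 3 tested paralogs passed (limma), and 1 was lower at an unadjusted p under 0.05, beside 13.3% of all genes tested. OAZ3, an antizyme known from testis, differed by -0.53 at a low level (6.43 and 6.78 with AICAR, against 7.28 and 6.99 with vehicle, log2; adjusted p = 0.0696), and the difference of its second probe set was 0.14. It passed with trend and robust variances (limma adjusted p = 0.0209) and without AICAR replicate 2 (-0.70, 0.04998), and not without AICAR replicate 1 (-0.35, 0.176) or as the mean of both probe sets (-0.20, 0.201). AZIN2, the second antizyme inhibitor, differed by 0.21 (adjusted p = 0.291), but by 0.089 without AICAR replicate 1, 0.10 without vehicle replicate 1, 0.33 without AICAR replicate 2, 0.32 without vehicle replicate 2 and 0.12 as the mean of its probe sets.

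Of 5 transcriptional regulators that are known to act on these genes, 1 rose and 1 fell, beside 4.63% and 5.19% of all genes tested. MYC, a textbook activator of ODC1 transcription, measured 11.63 and 11.69 (log2) with AICAR, against 11.23 and 11.16 with vehicle (difference 0.46, SE 0.0713, limma adjusted p = 0.0176). It was higher with AICAR, where ODC1 was lower, and a link between them was not tested. Its call was lost when vehicle replicate 1 (adjusted p = 0.0879), vehicle replicate 2 (0.105) or AICAR replicate 2 (0.0539) was left out. MYCN fell by 0.62 on the log2 scale (limma adjusted p = 0.0209; 0.122 and 0.0832 with vehicle replicate 1 or 2 left out), but only 2 of its 10 probe sets were negative and its other probe sets reached 0.34. NFE2L2 and PMF1, which form a complex known to drive SAT1 transcription, differed by 0.0057 (limma adjusted p = 0.981) and 0.08 (0.506). The 3 probe sets of NFE2L2 ran from -0.22 to 0.05, with 2 of them positive. Whether any of these regulators acted on ODC1 or SAT1 here was not tested.

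**Figure D3:**
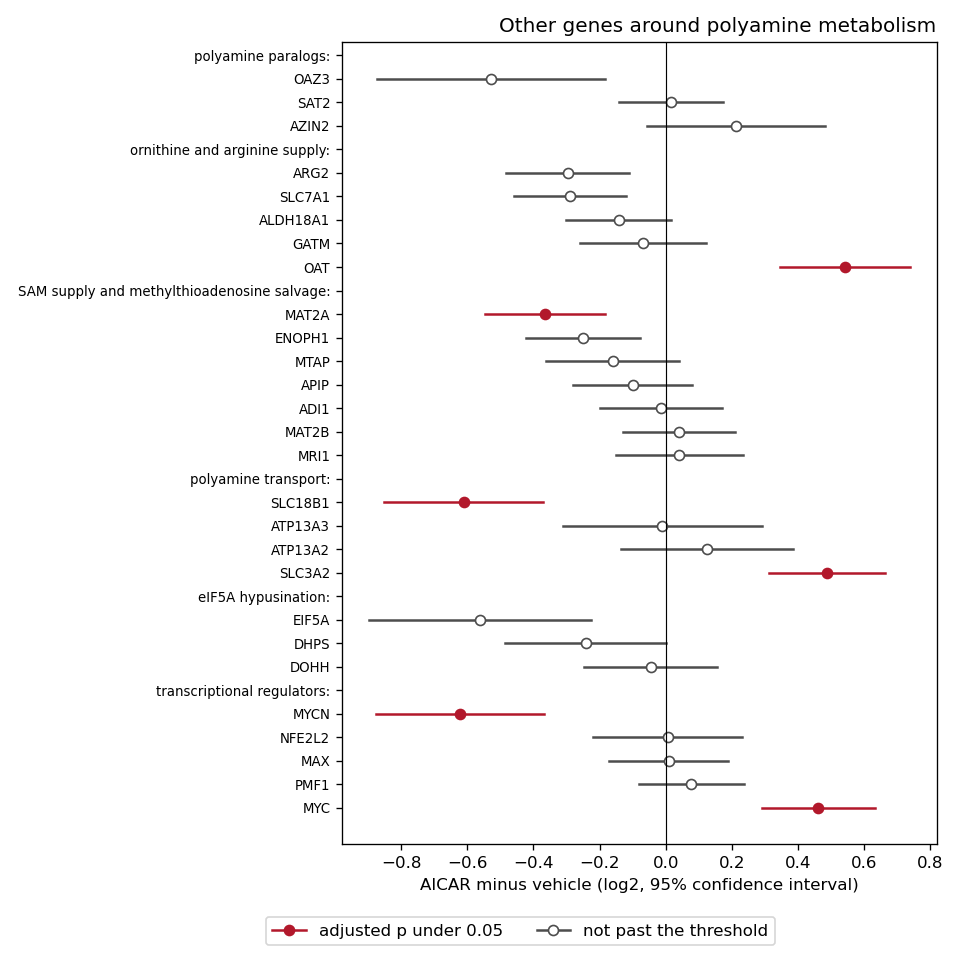
Difference in log2 expression, AICAR minus vehicle, of the tested genes of the 5 other pathway lists and of the transcriptional regulators, with 1 probe set per gene and 95% confidence intervals; filled points passed an adjusted p under 0.05. OAT (0.54), SLC3A2 (0.49) and MYC (0.46) lie to the right, and SLC18B1 (-0.61), MYCN (-0.62) and MAT2A (-0.37) lie to the left.

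The luminal markers of BT474 were present. All 10 luminal markers were tested, from GRB7 (9.25 with AICAR and 9.30 with vehicle, log2 means) to KRT19 (14.21 with AICAR and 14.09 with vehicle), and 1 of them, ESR1, fell (-0.31, limma adjusted p = 0.0411), but not without any 1 array (0.0763 to 0.236), after quantile normalization (0.0586), with no dim filter (0.0845), with the replicate block (0.0609) or as the mean of its 9 probe sets (-0.04, adjusted p = 0.773). Of 10 stromal, endothelial and blood cell markers 9 had a probe set and 5 were tested, and COL1A1 fell (-0.63, limma adjusted p = 0.0209), but not without vehicle replicate 1 (0.0825) or 2 (0.107) or as the mean of its probe sets (-0.23, adjusted p = 0.0727). COL1A2, COL3A1, CDH5 and PTPRC lay below the bound for dim genes. The summed linear level of the 9 was 1273 and 1374 with AICAR and 1639 and 1745 with vehicle, and that of the 8 without COL1A1 was 665 and 640 with AICAR and 648 and 664 with vehicle. Their part in the differences above was not tested. Of all genes tested 5.19% fell, beside 1 of the 10 luminal and 1 of the 5 tested stromal, endothelial and blood cell markers. Across probe sets r was 0.997 between replicates of either group and 0.994 to 0.995 between arrays of different groups.

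**Figure D4:**
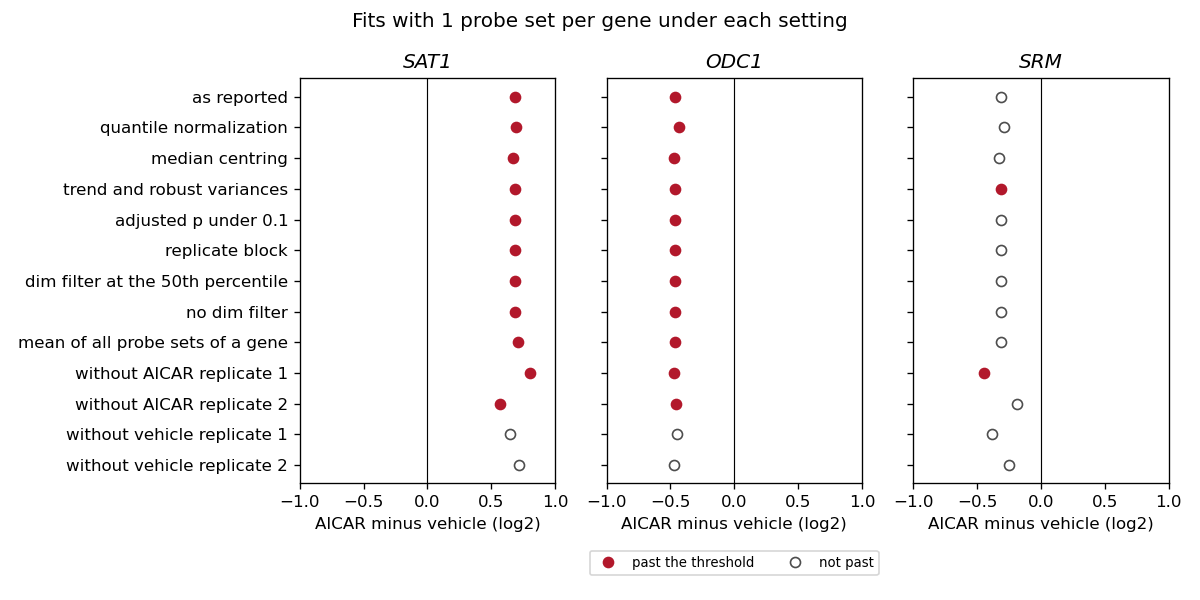
Difference in log2 expression, AICAR minus vehicle, of SAT1, ODC1 and SRM with 1 probe set per gene, as reported and under each alternative setting; filled points passed the threshold of that setting. SAT1 stays between 0.57 and 0.80 and ODC1 between -0.47 and -0.44, both without a call only where a vehicle array was left out, and SRM passes in 2 settings.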

How the data were processed

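Total RNA of 2 AICAR and 2 vehicle samples was measured on Affymetrix U133 Plus 2.0 arrays after biotin labelling (per the labels' protocols). The deposited values are log2 expression per probe set, normalized by the authors with Affymetrix Expression Console, per the submitters' processing notes; for its version, background correction and summarization the entry is "not given in the sources used here", so differences at low signal may be understated. They ran from 2.95 to 15.3 and were used as deposited. Precision is limited by the number of arrays.

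Of 54675 probe sets, 62 controls were left out. GEO's platform annotation gave 41097 probe sets 1 symbol and 1801 several; 41043 single-symbol probe sets matched RefSeq's gene table by Entrez ID and took its symbol (GRCh38.p14, used for names). For the fit with 1 probe set per gene, the brightest of each of 19775 genes was taken, and genes with a mean below the 30th percentile (log2 6.11) were left out. AICAR minus vehicle was fitted in R 4.3.3 with limma 3.58.1 (lmFit, then eBayes with no trend) and tested on simulated data. An exact permutation test of 2 against 2 arrays cannot give a p below 0.333 and was not used.

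The members, lists, tests and alternatives were chosen with earlier results of these data known. In the text are named all member probe sets and, per list, up to 4 called genes by size of change, or the 2 that moved most in lists with no call; ARG2, SLC7A1, MTAP, ENOPH1, ATP13A2, ATP13A3, NFE2L2, PMF1 and the cell markers were named once their values were known. Alternatives were other dim filters, quantile normalization, median centring, trend with robust variances, an adjusted p under 0.1, a block for the replicate number, leave-one-out fits and the mean of a gene's probe sets. The labels do not say that replicate numbers mark a pairing.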

Additional observations from a re-analysis of the deposited data

How the results depend on the processing

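Over all probe sets, 1 polyamine probe set fell at an adjusted p under 0.1 and with a dim filter at the 30th or the 50th percentile, and 2, ODC1 and SRM, fell with trend and robust variances; the count of rises was 2 or 3 in these settings. The difference of ODC1, -0.46 in each of these 4, had an adjusted p of 0.0376 (limma) with the filter at the 30th percentile, 0.0199 at the 50th and 0.000606 with trend and robust variances. With 1 probe set per gene, the same 2 genes fell with trend and robust variances. Of the other pathway genes 7 fell with trend and robust variances and 7 at an adjusted p under 0.1, against 2 as reported. With a filter at the 50th percentile 6 fell, and 1 with no dim filter. Shares of all genes or probe sets were taken only for the fits as reported. The counts under other settings thus cannot be compared with a general rate. When 1 array was left out, the polyamine probe sets that rose numbered 0 to 0, the member genes that rose 0 to 1 and those that fell 0 to 2, and the other pathway genes that rose 0 to 2 and those that fell 0 to 2. The cause of these shifts was not tested.

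Differences that changed sign were all small. AMD1 201196_s_at was 0.0032 after quantile normalization, and SMOX 210357_s_at was -0.011 after median centring. With 1 array left out, AMD1 201196_s_at ran from -0.084 to 0.019, OAZ1 215952_s_at from -0.10 to 0.0077, OAZ2 201364_s_at from -0.13 to 0.024, PAOX 221941_at from -0.049 to 0.10, PAOX 238333_s_at from -0.061 to 0.11, SMOX 210357_s_at from -0.058 to 0.059 and SMS 202043_s_at from -0.21 to 0.010.

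With the replicate number as a block, 3 polyamine probe sets rose and 0 fell over all probe sets, and SAT1 203455_s_at passed (limma adjusted p = 0.0328) while ODC1 did not (0.0689). With 1 probe set per gene, 1 member rose and 1 fell under the block, as did 2 and 3 other pathway genes. EIF5A passed under it (limma adjusted p = 0.0410) and ESR1 did not (0.0609). The shares of all genes and probe sets that passed under the block were not taken. Deviations from the group means of arrays with the same number correlated at -0.07, so the numbers were not taken as pairs. The 2 arrays per group limit the precision of every difference; signal over background was not used here.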
